A study of Mus musculus with 2 samples.

Results

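The genes described here encode the protein machinery of mitochondrial oxidative phosphorylation. They were taken from the deposited gene table by name: rows with a single symbol that starts with Ndufa, Ndufb, Ndufc, Ndufs, Ndufv, Uqcr, Atp5 or Cox followed by a digit from 4 to 8, the 4 Sdh genes, Cyc1 and Cycs. The rule used no measured value and found 94 of the 23309 rows. Of these, 85 encode subunits or cytochrome c, and 9 are matched by name alone, namely 7 assembly factors of complex I (Ndufaf1 to Ndufaf7) and Atp5s and Atp5sl.

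In oxidative phosphorylation, complexes I and II take electrons from NADH and succinate and hand them to coenzyme Q. Complex III passes them on to cytochrome c, and complex IV uses them to reduce oxygen. Complexes I, III and IV pump protons across the inner mitochondrial membrane, and complex V, the ATP synthase, makes ATP as the protons return. Most subunits are encoded in the nucleus and a few by mitochondrial DNA, whose genes were not analysed here. Blood stem cells are known to rely largely on glycolysis, and oxidative phosphorylation is drawn on more as they commit to a lineage.

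The RNA came from lineage-depleted mouse bone marrow of Cebpaf/f;CreER genotype, in which the Cebpa alleles are flanked by loxP sites and Cre acts once 4-hydroxytamoxifen (4OHT) is added. Both conditions carried the retroviruses MIGR1-HA-Hoxa9 and MIGR1-Flag-Meis1 and were grown with interleukin-3, and they differed in 72 h of ethanol (vehicle) or of 5 nM 4OHT. The deposited sample of either condition joins 2 replicates, so 1 value per gene and condition is available, in FPKM (fragments divided by transcript length and by sequencing depth), and the spread between replicates is unknown. The promoter that drives CreER and the age and number of mice are not given in the sources used here, and an effect of 4OHT or Cre apart from loss of Cebpa cannot be told apart from that loss. A gene is called higher or lower where the authors' deposited table gives status OK and a q-value under 0.05.

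The targeted gene had 109 FPKM with vehicle and 42.8 FPKM after 4OHT, a change of -60.8%, and was called lower. Part of its signal thus remained, and how complete the deletion was is not known. The table holds no read counts, so depth is unknown. All 6 genes read as markers of blood progenitors, though not confined to them (Kit, Cd34, Ptprc, Myb, Gata2 and Flt3), reached 1 FPKM. They summed to 567 FPKM with vehicle and 836 FPKM after 4OHT, of which Cd34 held 284 and 493 FPKM. Of the 6, 4 were called higher, against 2.8% of all tested rows. Myb (152 and 149 FPKM) and Ptprc (42.7 and 41.2 FPKM) were not called. None of 4 erythroid, 4 late neutrophil or 3 lymphoid markers reached 1 FPKM in either condition, with summed levels of 0.0938 to 0.958 FPKM. The 4 macrophage markers with a row summed to 184 and 155 FPKM, with Cd68 called lower and Mrc1, below 1 FPKM, called higher. Of the stromal pair, Pdgfrb was called higher, at 6.62 and 13.3 FPKM, and Col1a1 stayed under 1 FPKM. Of 4 muscle and fat markers 1 reached 1 FPKM, Ckm, at 1.19 and 1.06 FPKM. The part of any shift in cell types in the values below was not tested, and in bulk RNA fewer cells of a type and less RNA per cell cannot be told apart.

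No oxidative phosphorylation gene was called after 4OHT. Of the 94 rows, 90 reached 1 FPKM in the higher condition and were tested by the authors, and 0 were called higher and 0 lower by the q of the authors' deposited table. Of all 11953 tested rows 5.91% were called, 2.8% as higher and 3.11% as lower. At an unadjusted p under 0.05, also in the authors' deposited table, Cox6b2 was higher and Ndufv3 lower, 2 of 90 rows, against 12.3% of all tested rows. No other tool could be run on 1 value per condition. The median deposited p of the 90 rows was 0.676, and for 80 of them the deposited q was above 0.99. The 4 rows that were not tested are Cox7b2, Cox8b and Cox8c, listed at 0 in both conditions, and Ndufa4l2, at 0.0996 and 0.103 FPKM.

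These transcripts were abundant in both conditions. The median over the 90 rows was 178 FPKM with vehicle and 166 FPKM after 4OHT, against 15.6 and 15.4 FPKM over all 10989 rows that reached 1 FPKM. In vehicle cells 66 of the 90 stood at or above 95.4 FPKM, the 90th percentile of those rows. Summed, the 94 rows held 20697 of 684536 FPKM in vehicle cells (3.02%) and 19980 of 673516 FPKM after 4OHT (2.97%). FPKM is scaled by transcript length, so levels are compared between genes here, but only roughly. Overlapping loci and reads with several matches, described below, can shift the level of a single gene.

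Lower values outnumbered higher ones. Of the 90 rows, 65 (72.2%) had a lower value after 4OHT and 25 a higher one, where 49.9% of all rows of at least 1 FPKM were lower. The median log2((4OHT FPKM + 1)/(vehicle FPKM + 1)), called the log2 ratio from here on, was -0.05 for these genes and 0.00 for all rows. When both conditions were scaled to the same FPKM sum, 56 of the 90 (62.2%) were lower, against 44.0% of all rows. Among highly expressed genes in general lower values were also more frequent: at 100 FPKM or more, 58.3% of 1089 rows were lower, with a median of -0.03, and 51 of 65 oxidative phosphorylation rows (78.5%), with a median of -0.06. No single shift behind these counts passed the authors' test, and the counts carry no test of their own.

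**Figure D1:**
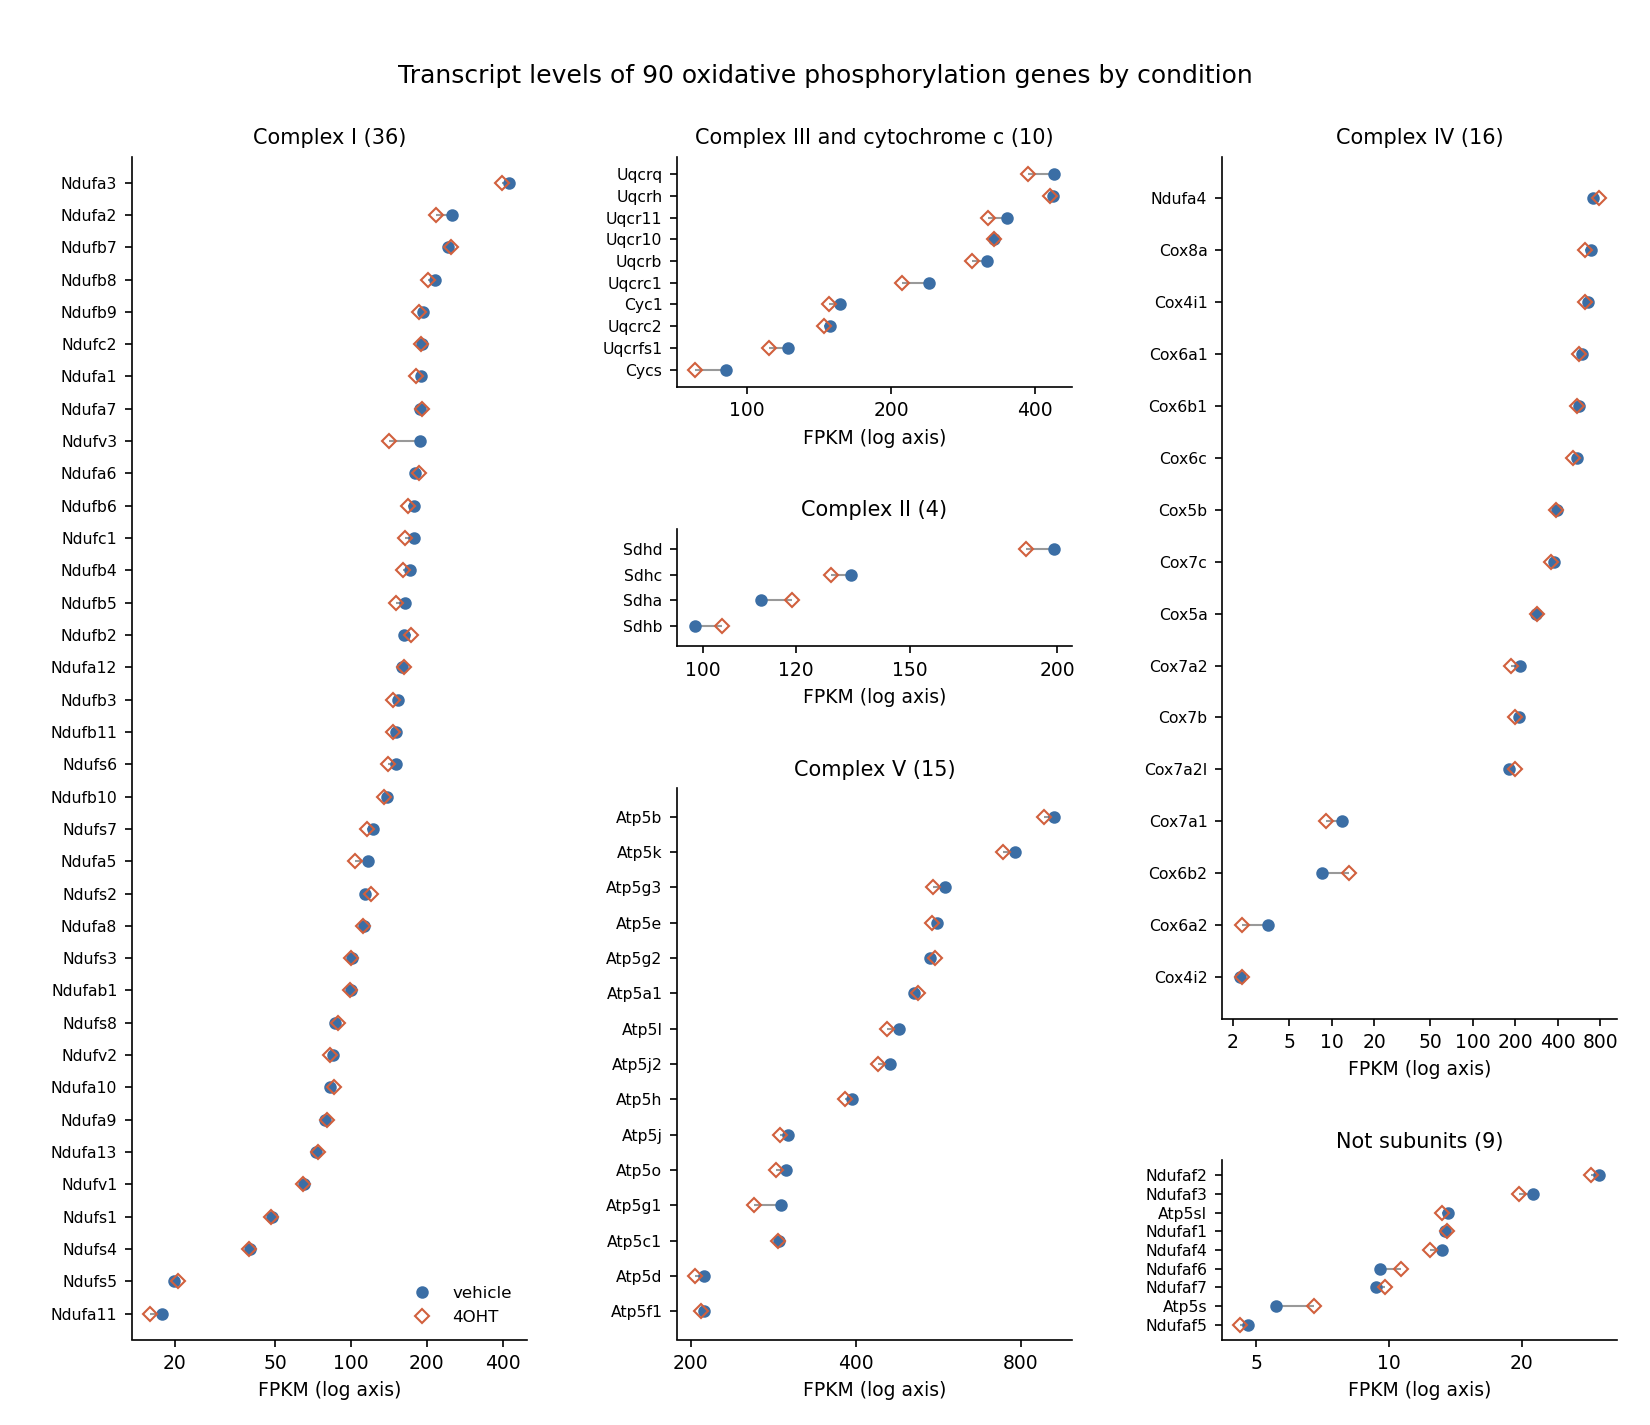
FPKM (log axis, with its own range in each panel) of the 90 measured genes in vehicle cells (filled circles) and after 4OHT (open diamonds), 1 deposited value per condition, grouped by complex and ordered by vehicle level. The pairs of points lie close together throughout, and the widest gaps are in the low rows Cox6b2 and Cox6a2 and in Ndufv3.

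The size of change that could be called limits this comparison. Among tested rows of at least 100 FPKM, 52 of 1076 were called (4.83%), and the smallest called change was 0.49 in log2 of the plain FPKM ratio, equal to a change of -28.8% or 40.5%. None of the 65 oxidative phosphorylation rows at that level reached it, and their largest was 0.40, for Ndufv3. Between 20 and 100 FPKM the smallest called change was 0.47, and the largest of the 13 rows there was 0.22, for Cycs. At lower levels 1 row in each bin reached the smallest called change and was still not called. These were Cox6b2 between 5 and 20 FPKM, at 0.62 against 0.49, and Cox6a2 between 1 and 5 FPKM, at 0.63 against 0.58. The changes of the 78 rows of at least 20 FPKM were thus below the smallest size called in their bins. The median size of change, irrespective of sign, was 0.07 for the 65 rows and 0.09 for all rows at 100 FPKM or more, both without a pseudocount.

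**Figure D2:**
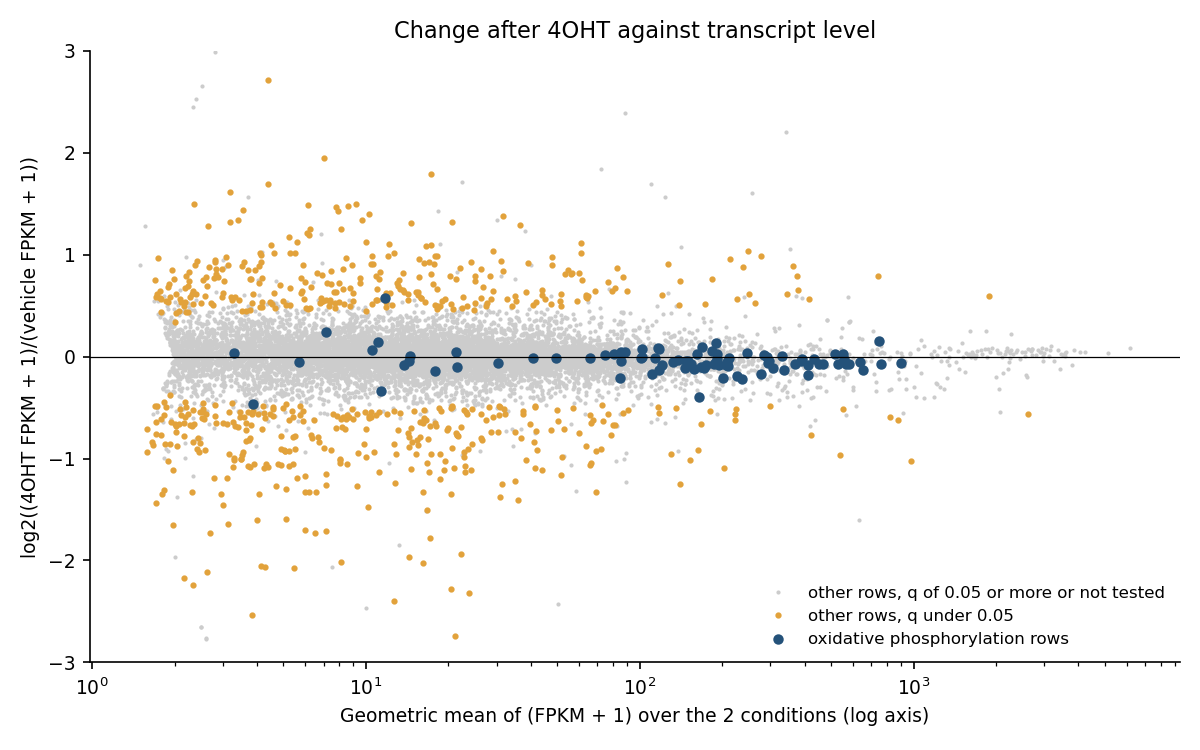
The log2 ratio (vertical axis, pseudocount of 1 FPKM) against the geometric mean of FPKM + 1 over both conditions (horizontal log axis) for rows of at least 1 FPKM, with oxidative phosphorylation rows as large dark points and other rows called at q under 0.05 in orange. The oxidative phosphorylation rows lie between -0.46 and 0.57, none is called, and 51 other rows fall outside the vertical axis.

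Complex I, the NADH dehydrogenase, had 36 measured subunits, 0 of them called. Of these, 25 had a lower and 11 a higher value after 4OHT, with a median log2 ratio of -0.03, and the summed level was 5138 FPKM with vehicle and 4944 FPKM after 4OHT. The 7 nuclear-encoded core subunits, which carry the flavin and iron-sulphur centres or bind coenzyme Q, stood between 48.8 FPKM (Ndufs1, with 48.4 FPKM after 4OHT) and 123 FPKM (Ndufs7, with 116 FPKM after 4OHT) in vehicle cells. Their log2 ratios ran from -0.08 to 0.08, and their sum was 623 and 621 FPKM. Ndufv1, the subunit that oxidises NADH, had 65.2 and 64.6 FPKM. The 29 accessory subunits were higher in level, with a vehicle median of 162 FPKM against 86.1 FPKM for the core, and covered a wider range.

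Among accessory subunits Ndufa3 was highest, with 424 FPKM with vehicle and 399 FPKM after 4OHT. Ndufa11, a membrane subunit, was lowest, with 17.8 and 15.96 FPKM. The highest ratio was that of Ndufb2, with 162 and 172 FPKM. The lowest was that of Ndufv3, which belongs to the NADH-oxidising part beside Ndufv1 and lies on mm9 chromosome 17 from 31657060 to 31668270. It stood at 187 FPKM with vehicle and 142 FPKM after 4OHT, a change of -24.3% and a log2 ratio of -0.40, with p = 0.0346 and q = 0.315 in the authors' deposited table. Its partners in that part, Ndufv1 and Ndufv2 (85.3 and 83.0 FPKM), had ratios of -0.01 and -0.04. Ndufs5, at 19.96 and 20.6 FPKM, is uncertain, since the row BC002163 (19.2 and 17.2 FPKM) lies within the same deposited locus.

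The 7 assembly factors of complex I, which help build it and are absent from the finished enzyme, had a lower median level than its subunits, 13.2 against 151 FPKM with vehicle, with overlapping ranges. They ran from 4.78 FPKM (Ndufaf5) to 29.9 FPKM (Ndufaf2) in vehicle cells, with 4 lower and 3 higher after 4OHT and none called. Atp5s, matched by name and not a subunit of the ATP synthase, had 5.54 and 6.75 FPKM, and Atp5sl 13.6 and 13.2 FPKM.

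Complex II, the succinate dehydrogenase, also works in the citric acid cycle and is the complex with no subunit from mitochondrial DNA. Its 4 genes split by role in the direction of their values. The flavoprotein gene Sdha had 112 and 119 FPKM and the iron-sulphur gene Sdhb 98.4 and 104 FPKM, both higher after 4OHT. The membrane anchor genes Sdhc, with 134 and 128 FPKM, and Sdhd, with 199 and 188 FPKM, were both lower. The log2 ratios ran from -0.08 to 0.08, none was called, and the smallest deposited p was 0.588, so the split lies within changes that the authors' test could not separate. The 4 rows summed to 543 and 539 FPKM.

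Complex III, the cytochrome bc1 complex, had the lowest median log2 ratio of the 5 complexes, -0.11. Of its 9 genes, 8 had a lower value after 4OHT and 1 a higher one, and 0 were called. Uqcrc1, a core protein, had the lowest ratio, with 241 FPKM with vehicle and 211 FPKM after 4OHT, a change of -12.2% (q = 0.951 in the authors' deposited table). Uqcrq, a small subunit and the highest row of the complex with vehicle, had 439 and 387 FPKM, and Uqcrh, next to it with vehicle, had 437 and 430 FPKM. Uqcr10 was the row with the higher value, 328 and 329 FPKM. The subunits that move electrons to cytochrome c were the Rieske iron-sulphur protein gene Uqcrfs1, with 122 and 111 FPKM, and the cytochrome c1 gene Cyc1, with 157 and 149 FPKM. The summed level of the complex was 2539 FPKM with vehicle and 2375 FPKM after 4OHT, a change of -6.47%, where the sum over all rows changed by -1.61%.

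Cytochrome c itself, the soluble carrier between complexes III and IV that also triggers apoptosis when released, is encoded by Cycs (mm9 chromosome 6, 50512562 to 50516473). Cycs stood at 90.3 FPKM with vehicle and 77.8 FPKM after 4OHT, a change of -13.8%, with p = 0.177 and q = 0.824 in the authors' deposited table. It was below all 9 complex III rows by more than 30 FPKM in vehicle cells.

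Complex IV, cytochrome c oxidase, had 20 rows, of which 16 were measured and 0 called. This count places Ndufa4 and its paralog Ndufa4l2 here, since Ndufa4, once listed under complex I, is now taken to be a subunit of complex IV. The 12 rows that encode the usual subunits stood between 181 and 706 FPKM in vehicle cells. Of these 9 had a lower and 3 a higher value after 4OHT, with a median log2 ratio of -0.06 and sums of 5396 and 5273 FPKM. Ndufa4 was the highest, with 706 FPKM with vehicle and 783 FPKM after 4OHT, and its log2 ratio of 0.15 was the highest among the 12 (q = 1.00 in the authors' deposited table).

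Several subunits of complex IV come in forms that are known to be used in different tissues, and these cells held almost only the widespread forms. Cox4i1 made up 99.7% of the summed Cox4 level with vehicle and 99.6% after 4OHT, and Cox4i2, the form tied to low oxygen and lung, had 2.25 and 2.33 FPKM. Cox6a1 made up 99.4% and 99.6% of its pair. Cox6a2, the heart and muscle form, had 3.56 FPKM with vehicle and 2.31 FPKM after 4OHT (p = 0.140 in the authors' deposited table), and its deposited locus also spans Itgad. Cox8a had 681 and 622 FPKM, and its muscle form Cox8b and testis form Cox8c were listed at 0. Cox7b had 211 and 200.02 FPKM, and the testis gene Cox7b2 was listed at 0.

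Among these low forms, Cox6b2 had the highest ratio of the whole set. Cox6b2, known as the testis form, lies on mm9 chromosome 7 from 4703396 to 4704696. It stood at 8.60 FPKM with vehicle and 13.3 FPKM after 4OHT, a change of 54.1% and a log2 ratio of 0.57, with p = 0.0271 and q = 0.268 in the authors' deposited table. Its share of the Cox6b pair was 1.504% with vehicle and 2.36% after 4OHT. The widespread form Cox6b1 had 563 and 548 FPKM.

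Among the sets of complex IV, the Cox7a genes had a pair of forms at similar levels, Cox7a2 with 52.8% of the summed level under vehicle and Cox7a2l with 44.3%. Cox7a2, the widespread form, had 216 FPKM with vehicle and 187 FPKM after 4OHT, with a log2 ratio of -0.21. Cox7a2l, whose product joins complexes III and IV into supercomplexes, had 181 and 198 FPKM, with a ratio of 0.13. The order of the pair thus differed between conditions, but neither was called (q = 0.871 and 1.00 in the authors' deposited table). The muscle form Cox7a1 had 11.8 and 9.13 FPKM.

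**Figure D3:**
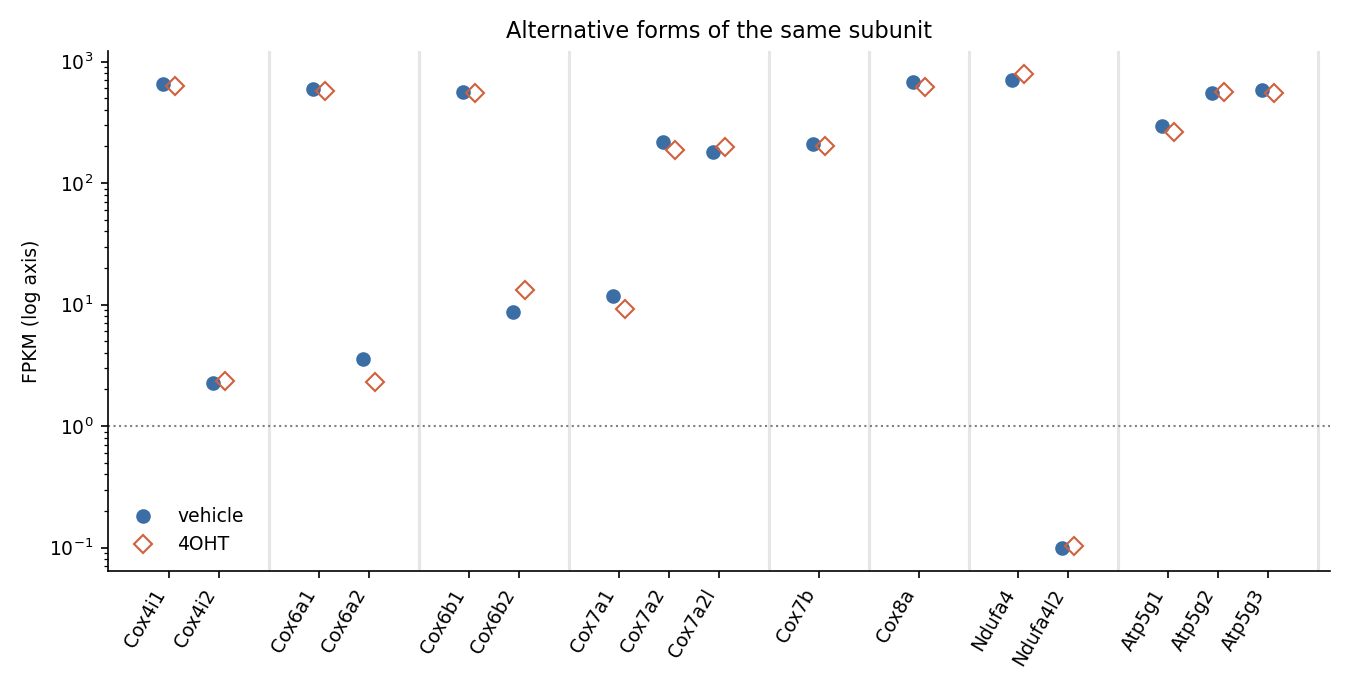
FPKM (log axis) of genes that encode alternative forms of 1 subunit, in vehicle cells (filled circles) and after 4OHT (open diamonds), with a vertical line between sets and a dotted line at 1 FPKM; Cox7b2, Cox8b and Cox8c, listed at 0, are left out. Widespread forms lie above 150 FPKM, and Cox4i2, Cox6a2, Cox6b2, Cox7a1 and Ndufa4l2 lie below 15 FPKM in both conditions.

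Complex V, the ATP synthase, had 15 measured rows and 0 called. Of these, 13 had a lower and 2 a higher value after 4OHT, with a median log2 ratio of -0.06 and sums of 6844 and 6625 FPKM. Atp5b, the catalytic beta subunit of the F1 head, was the highest row of the complex and of the whole set, with 920 FPKM with vehicle and 883 FPKM after 4OHT. Atp5a1, which forms the head together with Atp5b, had 511 and 520 FPKM. The lowest row with vehicle was Atp5f1, subunit b of the outer stalk that holds the head in place, with 211 and 209 FPKM. Close to it was Atp5d, a gene of the central stalk of F1, with 212 and 204 FPKM. The 5 genes of F1 (head and central stalk) had a median ratio of -0.03, and the 10 genes of the membrane part and outer stalk -0.07.

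The proton-carrying c subunit of the membrane ring is encoded by 3 genes whose mature proteins are known to be the same. Atp5g3 had 582 and 553 FPKM, Atp5g2 546 and 557 FPKM, and Atp5g1 293 and 261 FPKM. They made up 40.9%, 38.5% and 20.6% of their sum with vehicle and 40.3%, 40.7% and 19.0% after 4OHT. Within complex V, Atp5g1 had the lowest ratio, -0.17, and Atp5g2 the highest, 0.03, and neither was called.

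**Figure D4:**
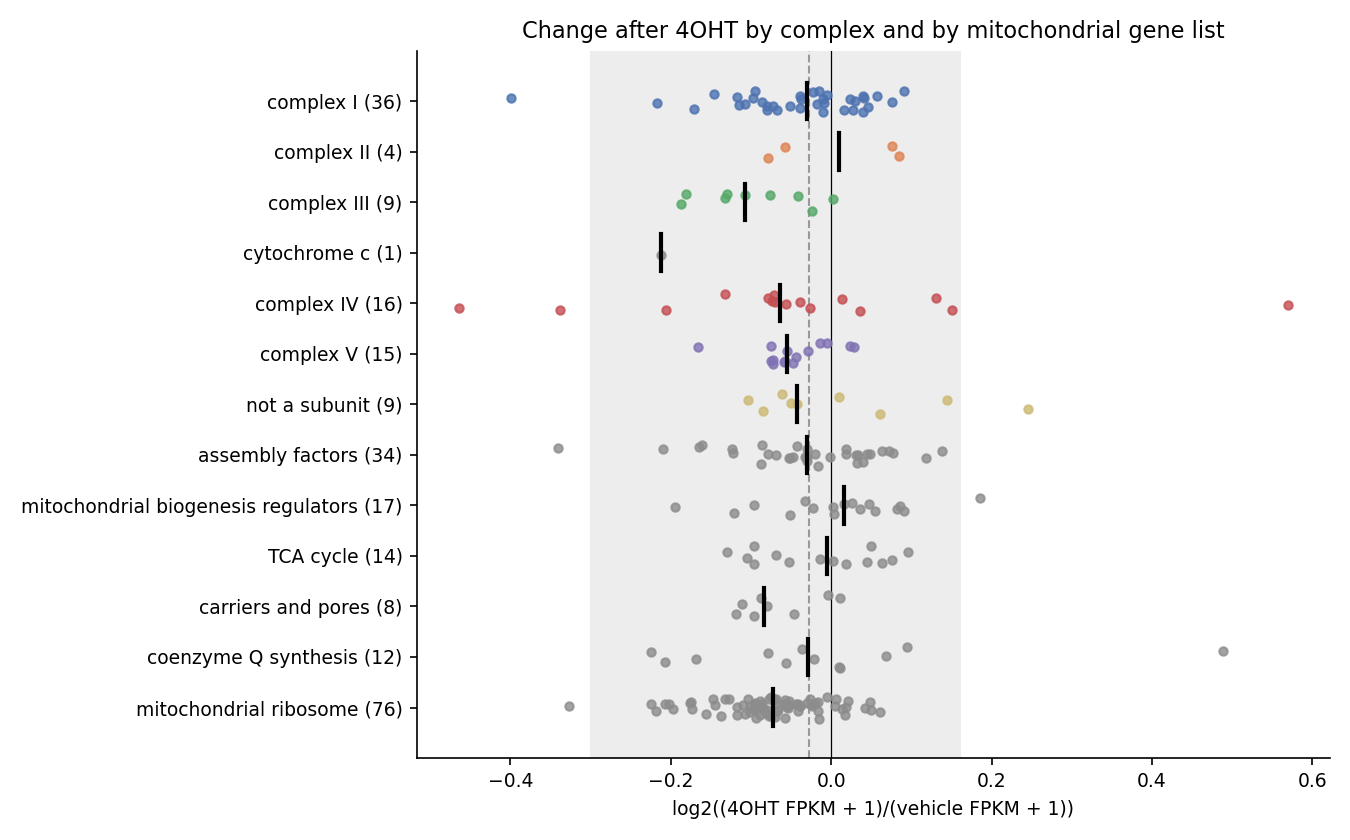
The log2 ratio (pseudocount of 1 FPKM) of each measured gene, by complex and, in grey, by list of other mitochondrial genes, with the number of genes in parentheses and a black bar at each median. The grey band runs from the 10th to the 90th percentile (-0.30 to 0.16) of all rows of at least 100 FPKM, whose median is the dashed line, and the medians of all groups lie inside it.

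Other genes of mitochondrial energy metabolism were read from lists by function. The list of assembly factors for complexes II to V and further factors for complex I also held Atpif1, Lrpprc and Taco1, which have other roles. It had 35 rows, 34 of them measured and 0 called, with 21 lower and a median ratio of -0.03. Cox17, which carries copper to complex IV, had the lowest ratio, with 263 FPKM with vehicle and 208 FPKM after 4OHT (q = 0.338 in the authors' deposited table), followed by Coa6, with 25.3 and 21.7 FPKM, and Ecsit, with 22.5 and 19.9 FPKM. Of 14 citric acid cycle genes, 7 were lower, 7 higher and 0 called, with a median of -0.01. The ratios farthest from 0 were those of Ogdh, with 32.3 and 29.5 FPKM, Mdh2, with 367 and 341 FPKM, and Idh3a, with 84.1 and 78.5 FPKM, and the highest ratio was that of Suclg2, with 54.9 and 58.8 FPKM, added after its values were seen. Of 12 coenzyme Q synthesis genes 0 were called and 7 were lower, and the ratio farthest from 0 was that of Adck3, with 1.65 and 2.72 FPKM (q = 0.0977 in the authors' deposited table).

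The list of adenine nucleotide and phosphate carriers, uncoupling proteins and outer membrane pores also held Usmg5, which is none of these. It had 8 measured members, 7 of them lower and 0 called, with a median of -0.08. Of all rows of at least 100 FPKM, 58.3% were lower. Vdac3, an outer membrane pore, had 158 and 145 FPKM, Vdac1 171 and 158 FPKM, and Usmg5, a small protein bound to the ATP synthase, 497 and 465 FPKM. The mitochondrial ribosome translates the subunits encoded by mitochondrial DNA. Of the 76 genes of its proteins, 66 were lower (86.8%) and 10 higher, with a median of -0.07 and 0 called. This share was above the 72.2% of the oxidative phosphorylation rows. Of all rows 49.9% were lower at 1 FPKM or more, and 54.5% at 20 FPKM or more. Mrpl19 had 17.0 and 13.3 FPKM (q = 0.417 in the authors' deposited table), Mrpl33 297 and 254 FPKM, and Mrps36 69.1 and 59.2 FPKM.

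Regulators of mitochondrial biogenesis control the making of mitochondria and the copying and reading of their DNA. Of 17 measured genes, 6 were lower, 11 were higher and 0 were called, with a median ratio of 0.02. Tfb1m, a methyltransferase of mitochondrial ribosomal RNA, had 11.9 and 10.3 FPKM. Peo1, the helicase of mitochondrial DNA, had 13.0 and 14.9 FPKM, and Polg, its polymerase, 17.7 and 16.2 FPKM. Nrf1, a transcription factor of nuclear-encoded mitochondrial genes, had 17.04 and 17.09 FPKM. Ppargc1a, a coactivator that drives biogenesis in muscle and brown fat, was under 1 FPKM, at 0.0211 and 0.0129 FPKM. Nrf1 and Ppargc1a were picked out after their values were seen.

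Promoters were read because nuclear respiratory factor 1, the product of Nrf1, is known to act through a palindrome near the start of many of these genes. RefSeq promoters (GRCm38.p6) were matched for 77 of the 94 genes, and the 250 bases before the start were searched for GCGCATGCGC, which reads the same on both strands. It was present in 5 of the 77 (6.49%), against 2.02% of 8703 genes of at least 1 FPKM and 0.877% of all 27025 genes in the table. The 40 bases around it are shown 5′ to 3′ on the gene's strand, with the palindrome in capitals.
Atp5g2 (chr15:102671065-102671104, minus strand): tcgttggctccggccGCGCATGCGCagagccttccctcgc
Atp5k (chr5:108434425-108434464, minus strand): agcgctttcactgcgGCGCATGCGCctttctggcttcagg
Cox6a1 (chr5:115349096-115349135, minus strand): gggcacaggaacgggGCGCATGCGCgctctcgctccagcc
Ndufa11 (chr17:56717687-56717726, plus strand): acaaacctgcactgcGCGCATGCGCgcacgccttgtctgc
Ndufaf4 (chr4:24897955-24897994, plus strand): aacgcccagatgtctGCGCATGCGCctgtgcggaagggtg
The 5 genes differ widely in level, from 13.2 and 12.4 FPKM for Ndufaf4 and 17.8 and 15.96 FPKM for Ndufa11 to 781 and 743 FPKM for Atp5k, with 546 and 557 FPKM for Atp5g2 and 596 and 567 FPKM for Cox6a1. Their log2 ratios ran from -0.15 to 0.03.

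The same stretches were searched for letters bound by ETS factors such as GABP, CCGGAAG on either strand, and for the C/EBP palindrome TTGCGCAA, the same on both strands. The ETS letters were present in 13 of the 77 (16.9%), against 17.3% of genes of at least 1 FPKM and 7.83% of all genes. The C/EBP letters were present in 0 of the 77, against 0.299% of genes of at least 1 FPKM and 0.185% of all genes. At shares this low, a count of 0 in 77 genes cannot show that the letters are rarer here. In the 5 promoters shown, the NRF1 palindrome overlapped neither the ETS nor the C/EBP letters. A match describes letters in a window and not a bound site, and its absence here covers only these letters in this window.

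Short annotated transcripts were a further feature of most of these genes. The length of a gene is here the median over all its protein-coding entries, shorter isoforms included. By this measure Ndufs1 has 651 bases, Uqcrc1 533 and Ndufb2 2413. The isoforms expressed in these cells are not known, so a gene may belong in another length bin than the one used below. The median length of protein-coding transcripts in GENCODE M21 was 713.5 bases for the 90 measured genes and 2089 bases for all measured rows that could be matched (94.0% of them), and 64 of the 90 were under 1000 bases, against 19.3% of all. Among rows under 1000 bases and of at least 100 FPKM, 42 of 50 oxidative phosphorylation genes (84.0%) had a lower value after 4OHT, against 240 of 406 other rows (59.1%), with medians of -0.07 and -0.03. From 1000 to 2000 bases, at the same level, the counts were 8 of 12 and 171 of 312 (54.8%), with medians of -0.01 and -0.01, and from 2000 to 3000 bases 1 of 3 and 72 of 124 (58.1%). With all rows of at least 1 FPKM, 51 of 64 oxidative phosphorylation genes under 1000 bases were lower (79.7%, other rows 52.9%), and 11 of 21 from 1000 to 2000 bases (52.4%, other rows 54.3%). The part of transcript length in the count of lower values was not tested, and these bins rest on annotated lengths only.

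Reads can also be shared with neighbours and copies. The deposited loci of 11 of the 94 rows overlap another row, among them Atp5j with Gabpa, Ndufb11 with Rbm10 and Ndufa4l2 with Shmt2. Atp5b, the highest row of the set, overlaps Mir677 (123 FPKM with vehicle and 60.7 FPKM after 4OHT, not called). Atp5f1, the lowest row of complex V with vehicle, overlaps Wdr77 (55.8 and 57.5 FPKM). Without the 10 such rows that were measured, 57 of 80 (71.25%) had a lower value after 4OHT, an alternative chosen after the data were seen. In GENCODE M21, 6 of the 94 genes (Atp5c1, Atp5k, Atp5l, Cycs, Ndufab1 and Uqcrh) have at least 1 pseudogene named after them. Pseudogenes under other names were not counted, so further genes of the set may have copies too. How reads with several matches were treated is not known, and the levels of genes with copies, counted here or not, are uncertain.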

How the data were processed

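RNA sequencing of 2 samples, vehicle and 4OHT, was used, with groups taken from the labels. Per the labels' protocols, libraries were made with an Illumina TruSeq RNA kit; strand and gene annotation are not given in the sources used here. Per the submitters' processing notes, Cuffdiff 2.0.2, Bowtie2 2.0.0.7 and CASAVA 1.8.2 were used and the build was mm9; their roles are not stated. Per the file headers, the authors deposited 1 FPKM value per gene and condition, a linear fold ratio, a p-value and a q-value. The test behind the p-value is not known, and no error of a fold change was taken from it. No test was run here, since each condition has 1 value; calls use the deposited q under 0.05.

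Log2 ratios were computed from FPKM with a pseudocount of 1, which understates changes of low genes, and a row counted as measured at 1 FPKM in the higher condition (Python 3.11.15, pandas 2.3.3, matplotlib 3.10.9). The rule and summaries were tested on simulated data. Depth is unknown, so no counting interval is given. Named genes were all called members, the Sdh genes, Cyc1, Cycs, the extremes of level and ratio in each complex, and paralogs of 1 subunit. From other lists, called genes and up to 3 with the largest ratio were named; further genes (core subunits, neighbours and those with a promoter match) illustrate a group or a locus. Members and lists were chosen with earlier results of these data known. Loci are mm9, starts counted from 1. GENCODE M21 and RefSeq tables are of GRCm38 and gave lengths and promoters only. Promoters were not used where no entry matched. Alternatives were other q and FPKM thresholds, pseudocounts, scalings and member sets.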

Additional observations from a re-analysis of the deposited data

How the results depend on the processing

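The counts of 0 genes called higher and 0 called lower were the same at q under 0.10, at q under 0.01, for subunits alone and with rows that join several symbols, which added no row. At an unadjusted deposited p under 0.05 they were 1 and 1 (Cox6b2 and Ndufv3). The share of genes with a lower value was 72.2% (65 of 90) and ran from 62.2% to 78.5% under the 8 alternatives tried. The lowest share, 56 of 90, came from scaling to the same FPKM sum, where 44.0% of all rows were lower. The highest was 51 of 65 genes of at least 100 FPKM, where 58.3% of all rows were lower. That setting and the count without overlapping loci were chosen after seeing the data. The median log2 ratio of the set and of each complex kept its sign under every pseudocount and scaling tried, and scaling to the same FPKM sum moved complex I nearest to 0, at -0.01. Among tested rows of at least 20 FPKM, 4.76% were called, against 5.91% of all tested rows. No paired analysis was possible because each condition has 1 deposited value that joins 2 replicates, and for the same reason no replicate could be left out. Changes of less than about the smallest called sizes could not be seen at this precision. Larger changes were not always called either. At 100 FPKM or more, 85 tested rows had a change of at least 0.49, while 52 rows were called.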
